A study of Mus musculus with 18 samples.

Results

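The genes described here were 9 genes at the head of the Hedgehog pathway, *Ptch1*, *Hhip*, *Smo*, *Boc*, *Cdon*, *Gas1*, *Gli1*, *Gli2* and *Gli3*, out of 55335 gene identifiers that were counted. They were chosen by name as the receptor, the secreted-ligand antagonist, the transducer, the co-receptors and the transcription factors of the pathway, and all 9 were found. RNA was sequenced from O9-1 cells, a wildtype neural crest (NC) line derived from the head of early mouse embryos, during culture in osteoblast differentiation medium. All groups were transfected with siRNA and held in this medium. Ctrl+vehicle cells carried scramble siRNA (siCtrl) and received no FGF2, a fibroblast growth factor. Ctrl+FGF2 cells carried siCtrl and received FGF2, and Y/T dKD+FGF2 cells carried pooled siRNAs against *Yap* and *Taz* and received FGF2. Each group had 3 libraries at d2.5 and 3 at d5, 18 in all, and no group combined the knockdown with vehicle. The model was a single cell line, and the knockdown was partial. The labels give each day as a batch of its own, so that day and batch cannot be told apart. They do not say whether replicates were separate cultures, and the p-values below measure the spread between these libraries, which may be technical.

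Hedgehog ligands are secreted lipid-modified proteins that bind Ptch1, and ligand binding releases the membrane protein Smo from inhibition, so that Smo enters the primary cilium and Gli transcription factors are turned from repressors to activators. Boc, Cdon and Gas1 are cell surface co-receptors that help Ptch1 to bind ligand, whereas Hhip binds ligand and keeps it from Ptch1. In the head, NC-derived mesenchyme receives Sonic hedgehog from the facial and forebrain epithelia, and forming bone makes Indian hedgehog; *Gli1*, *Ptch1* and *Hhip* are known as genes that pathway activity itself induces.

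Gene counts per library ran from 10377151 to 14698525, with a median of 12330911. Levels are given as CPM, read counts set to the same library total in every library, after scaling by edgeR's TMM method over all 18 libraries. Fold changes are log2 values from edgeR's quasi-likelihood test, fitted for each day with its 9 libraries, with the standard error (SE) of the estimate and a p-value adjusted by the Benjamini-Hochberg method over all genes tested; genes with an adjusted p under 0.05 are called. The targets of the siRNAs were lower in Y/T dKD+FGF2 than in Ctrl+FGF2 on both days: *Yap1* by 1.94-fold at d2.5 and 2.17-fold at d5, and *Wwtr1* (Taz) by 1.65-fold and 1.74-fold. Of 11 NC markers, 8 were expressed to a testable level on each day, with summed levels of 253 to 417 CPM, whereas *Sox10* and *Foxd3* had 0 counts in every library, which at a limit of 3 counts allows up to 0.289 CPM. The edgeR filter on low counts asked in effect for 0.78 CPM at d2.5 and 0.815 CPM at d5 in at least 3 libraries. *Boc* did not pass it at d2.5 and *Hhip* did not pass it at d5, so 8 of the 9 genes were tested on each day, and all 9 in the joint fit of both days. *Hhip* passed at d2.5 only through the FGF2-treated groups and *Gli1* passed at d5 only through Ctrl+vehicle. In the joint fit, *Boc* was above this level in no library of d2.5 and *Hhip* in none of d5, so that *Boc* entered through d5 and *Hhip* through d2.5 alone. Each of these had to differ between groups or days to be tested, and their values below are given for what they are.

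Of the 9 genes, 7 had an entry among RefSeq promoter sequences (GRCm38.p6), and none was at hand for *Gli1* and *Boc*. Sequences are shown for the gene with the largest difference under FGF2, *Hhip*, and for the only gene called lower in the knockdown on both days, *Smo*. *Ptch1* was also lower without overlap of libraries on both days, but was called only at d5. Each line is the 250 bases just before the annotated start, 5′ to 3′ on the strand of the gene, at chr8:80058009-80058258 (minus strand) for *Hhip* and chr6:29735247-29735496 (plus strand) for *Smo*.
Hhip: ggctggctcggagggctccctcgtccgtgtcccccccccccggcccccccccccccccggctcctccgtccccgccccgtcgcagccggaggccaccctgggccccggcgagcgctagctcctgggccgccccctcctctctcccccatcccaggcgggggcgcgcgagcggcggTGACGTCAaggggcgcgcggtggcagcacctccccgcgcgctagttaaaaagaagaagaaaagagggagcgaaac
Smo: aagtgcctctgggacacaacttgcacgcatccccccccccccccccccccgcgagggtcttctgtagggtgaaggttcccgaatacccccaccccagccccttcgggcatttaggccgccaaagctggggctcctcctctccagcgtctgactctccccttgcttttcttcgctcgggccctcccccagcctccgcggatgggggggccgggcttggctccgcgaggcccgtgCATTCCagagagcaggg
Capitals in *Hhip* mark the cAMP response element TGACGTCA, a palindrome 75 to 68 bases before the start, which 1.55% of 32851 promoters hold in this window; it was looked for after this sequence had been seen. Capitals in *Smo* mark CATTCC, 17 to 12 bases before the start, the reverse strand of the GGAATG hexamer bound by TEAD factors, through which Yap and Taz bind DNA. On either strand this hexamer is in 12.6% of promoters, and in no other of the 7 windows. The GLI consensus GACCACCCA, searched on both strands, was in none of the 7 windows and in 0.225% of all promoters. The windows of *Cdon* (chr9:35451826-35452075), *Ptch1* (chr13:63565736-63565985) and *Gli3* (chr13:15463473-15463722) lay inside the gene coordinates given below. The bases before the outermost 5′ end of these genes were not searched. A match of letters is a description of the window and was not tested for binding.

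Compared per kilobase of annotated exon, the levels of the 9 genes spanned several orders of magnitude. At d2.5 in Ctrl+vehicle, *Gas1* (33.9 CPM per kb ± 6.73, SD, n = 3) and *Smo* (29.2 ± 0.28) were highest and their libraries overlapped. *Gli3* followed at 9.78 ± 0.45 CPM per kb, then *Ptch1* at 2.64 ± 0.21, *Cdon* at 1.21 ± 0.20 and *Gli2* at 0.859 ± 0.054. *Gli1* (0.289 ± 0.087 CPM per kb), *Boc* (0.0767 ± 0.034) and *Hhip* (0.0306 ± 0.014) were the lowest. From *Smo* downwards, neighbours in this order did not overlap between libraries. In Ctrl+FGF2 at d2.5, *Hhip* stood above *Cdon*, at 0.829 ± 0.033 CPM per kb, and on d5 it was last or next to last in every group. *Gas1* at d5 reached 112 ± 5.79 CPM per kb in Ctrl+vehicle and 160 ± 9.95 in Y/T dKD+FGF2 and led *Smo* without overlap in all groups of that day. The order thus had *Gli3*, known mainly as the repressor of the family, above *Gli2* and far above *Gli1* in each of the 6 groups.

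**Figure D1:**
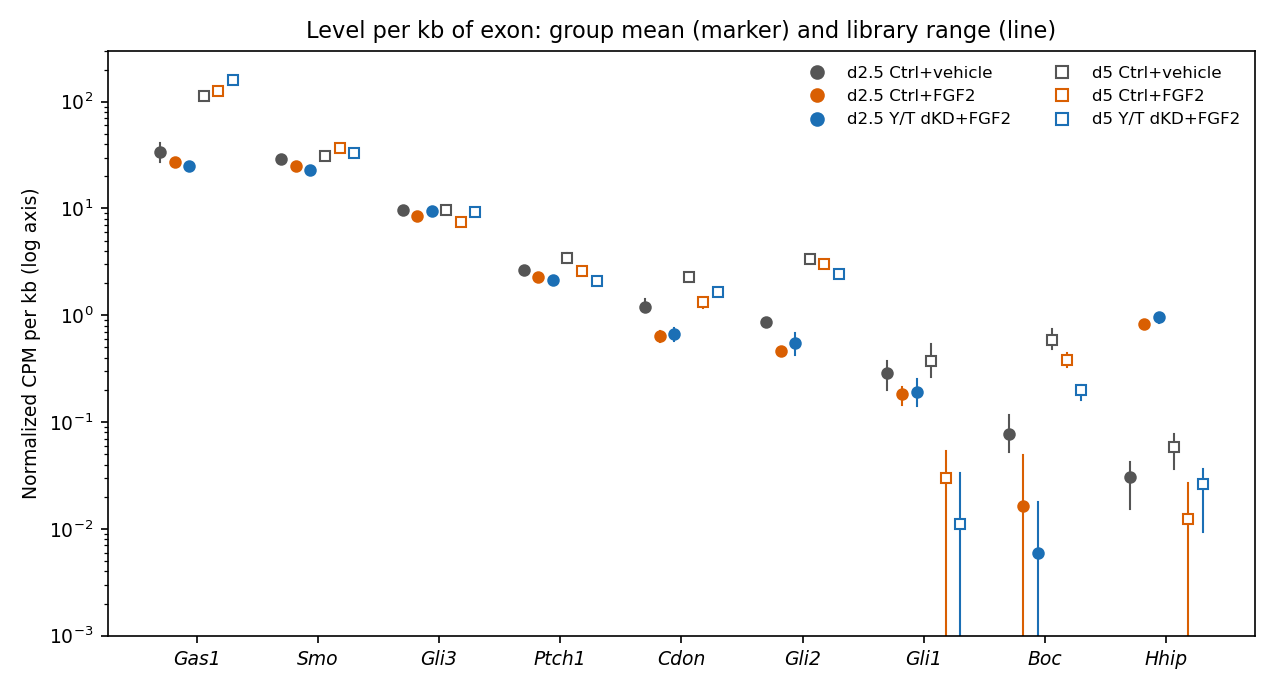
Normalized CPM per kb of exon (log axis) of the 9 genes in the 6 groups; filled circles are d2.5 and open squares are d5 group means, and lines give the range of the 3 libraries, running to the lower edge where a library had 0 counts. *Gas1*, *Smo* and *Gli3* lie above the other genes throughout, and *Hhip* is above 0.5 CPM per kb only in the FGF2-treated groups at d2.5.

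At d2.5, FGF2 lowered the receptor, the transducer, 2 co-receptors and the *Gli* genes by small to moderate amounts and raised the antagonist *Hhip* strongly. All 8 genes tested were called, 7 lower and 1 higher, where 67.6% of the 13677 genes tested were called (34.1% lower and 33.5% higher). The 1 higher was *Hhip*, which passed the filter only through the FGF2-treated groups and so had to be high there to be tested. Ctrl+FGF2 libraries and Ctrl+vehicle libraries did not overlap for 6 of the 8, against 70.5% of all genes tested. With this share of all genes called, a call by itself says little about a gene, and sizes and directions are given below. In bulk RNA, fewer cells of a kind and less RNA per cell cannot be told apart.

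*Ptch1* (chr13:63508328-63573598, GRCm38, minus strand), the ligand receptor, had 39.3, 39.0 and 34.2 CPM in Ctrl+vehicle and 31.6, 32.3 and 32.8 CPM in Ctrl+FGF2 at d2.5. Every FGF2 library was below every vehicle library, by a log2 fold change of -0.23 (SE 0.061, adjusted p = 0.00113). *Hhip* (chr8:79965851-80058006, minus strand) had 2, 6 and 4 counts in Ctrl+vehicle and 102, 105 and 116 counts in Ctrl+FGF2. The antagonist was near the limit of detection without FGF2 and was plainly expressed with it: the summed counts, 323 against 12, gave a ratio of 26.9-fold after scaling (95% counting interval 15.2 to 52.7), and the fitted log2 fold change was 4.70 (SE 0.25, adjusted p = 9.9e-17). Since *Hhip* passed the filter only through the FGF2-treated groups, this adjusted p was not independent of the filter. Counting intervals here are exact and cover counting error only. *Smo* (chr6:29735503-29761365, plus strand), the transducer, had 163, 163 and 166 CPM in Ctrl+vehicle and 138, 138 and 147 CPM in Ctrl+FGF2. The groups did not overlap, with a log2 fold change of -0.23 (SE 0.037, adjusted p = 1.9e-06).

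Among the co-receptors at d2.5, *Cdon* (chr9:35421128-35507652, plus strand) had 11, 8.58 and 8.27 CPM in Ctrl+vehicle and 4.37, 5.02 and 5.55 CPM in Ctrl+FGF2. This was the largest fall among the surface proteins that were tested, a log2 fold change of -0.91 (SE 0.14, adjusted p = 7.5e-07). *Gas1* (chr13:60174405-60177365, minus strand), which attaches to the membrane by a lipid anchor, had 121, 81.3 and 98.6 CPM in Ctrl+vehicle and 82.2, 82.7 and 76.7 CPM in Ctrl+FGF2. The groups overlapped, and the log2 fold change was -0.33 (SE 0.075, adjusted p = 3.2e-04); without Ctrl+vehicle replicate 1, the highest library, it was -0.17 (adjusted p = 0.00445). *Boc* (chr16:44485049-44558897, minus strand) was too low to test, with 4, 8 and 3 counts in Ctrl+vehicle, 0, 3 and 0 in Ctrl+FGF2 and 0, 0 and 1 in Y/T dKD+FGF2. By summed counts, 3 against 15, it was 5.0-fold lower with FGF2 (95% counting interval 1.41 to 26.9).

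*Gli2* (chr1:118834132-119053619, minus strand), the main activator of the family, had 5.73, 6.32 and 5.64 CPM in Ctrl+vehicle and 2.89, 3.35 and 3.34 CPM in Ctrl+FGF2 at d2.5. Its fall was close to that of *Cdon*, with a log2 fold change of -0.90 (SE 0.16, adjusted p = 1.2e-05). *Gli3* (chr13:15463235-15730026, plus strand) had 94.8, 97.5 and 89.0 CPM in Ctrl+vehicle and 82.5, 82.4 and 81.8 CPM in Ctrl+FGF2. This was a smaller difference with no overlap of libraries, -0.20 (SE 0.047, adjusted p = 3.5e-04). *Gli1* (chr10:127329882-127341974, minus strand), the family member that pathway activity induces, had 21, 29 and 13 counts in Ctrl+vehicle and 15, 10 and 14 in Ctrl+FGF2. The libraries overlapped, and the log2 fold change of -0.69 (SE 0.30) had an adjusted p of 0.0433, a call that was kept in 7 of 17 other fits. It was 0.208 with DESeq2, 0.0588 with no filter, 0.0807 with all 18 libraries in the fit, 0.119 with unstranded counts, 0.0562 with the replicate number as a block, and it was 0.0662 and 0.262 without Ctrl+vehicle replicate 1 or 2, 0.149 and 0.0823 without Ctrl+FGF2 replicate 2 or 3, and 0.0532 without Y/T dKD+FGF2 replicate 1 (log2 fold change -0.45 without Ctrl+vehicle replicate 2). *Gli1* shares 265 bases of exon with the antisense gene *Gm47200*; counts were taken by strand.

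**Figure D2:**
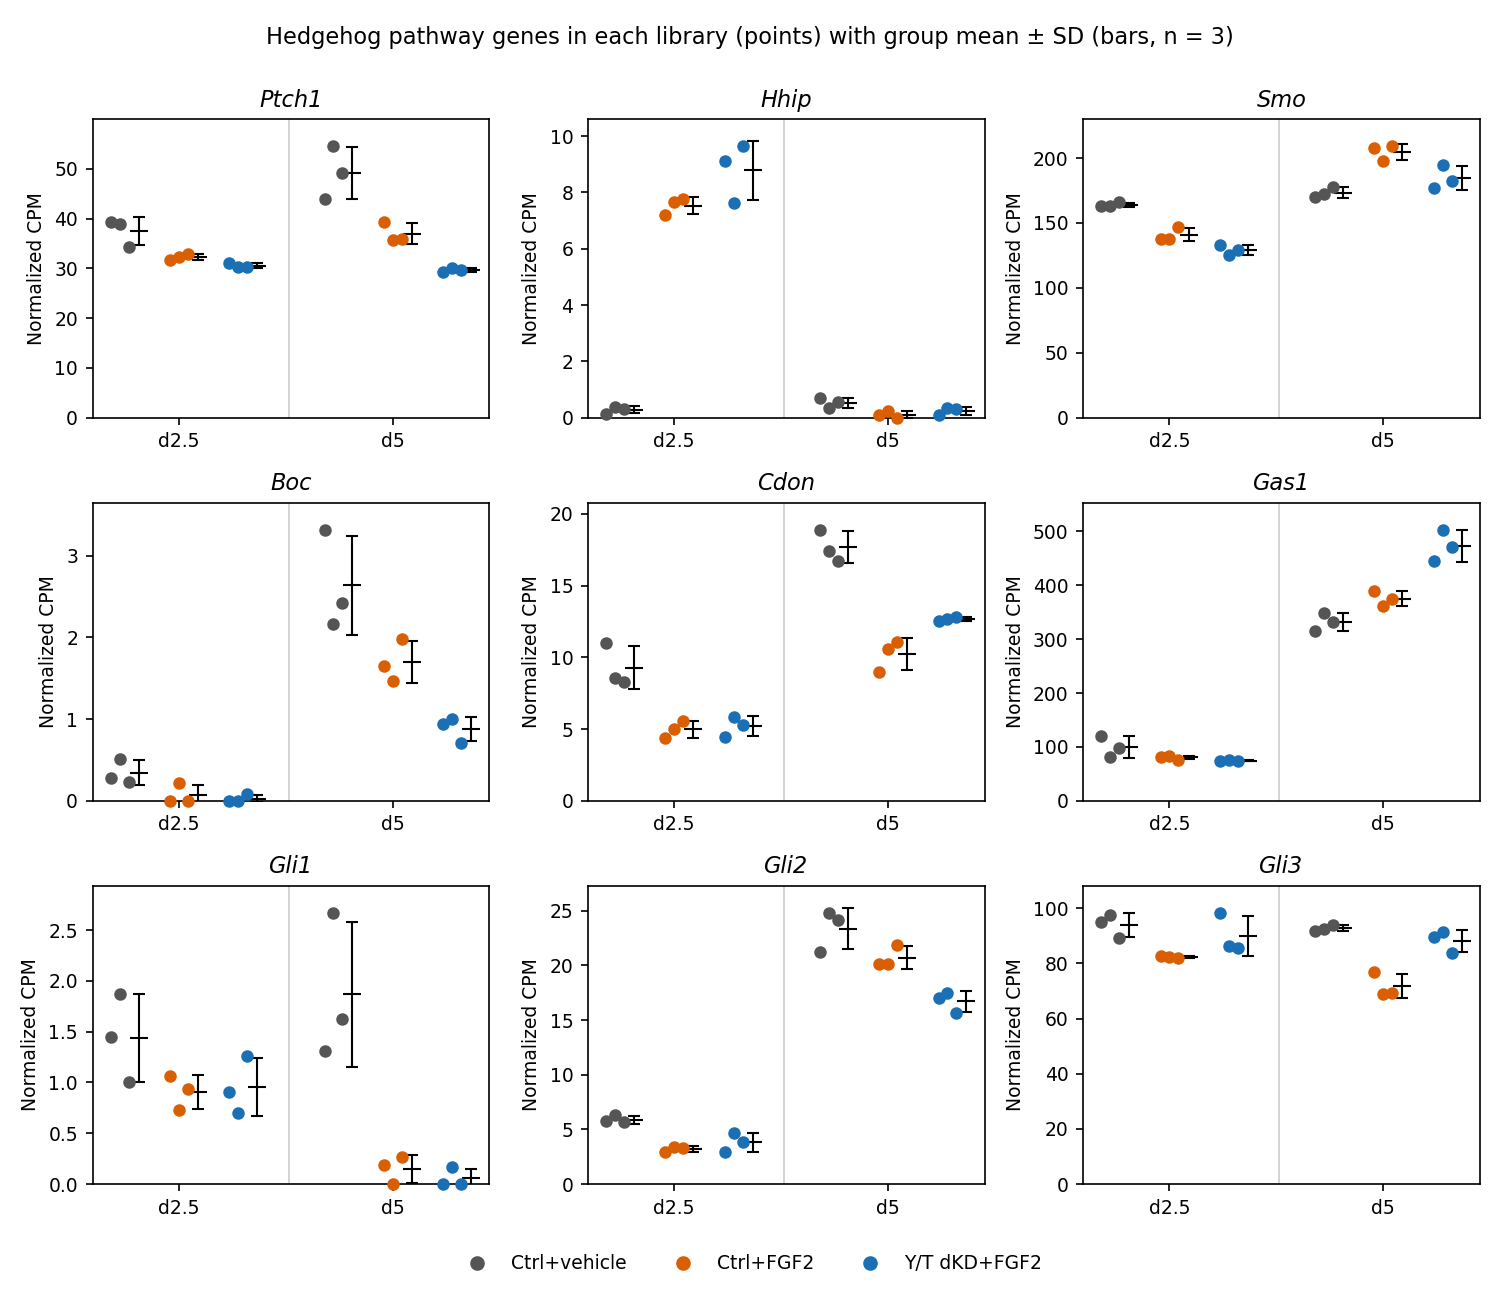
Normalized CPM (linear axes from 0) of each of the 9 genes in all 18 libraries; points are libraries, horizontal marks with bars are the mean ± SD of 3. *Hhip* stands above 7 CPM only in the FGF2-treated groups at d2.5, *Gli1* is near 0 in the FGF2-treated groups at d5, and *Gas1* at d5 is lowest in Ctrl+vehicle and highest in Y/T dKD+FGF2.

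At d5, *Gli1* transcripts were nearly absent with FGF2, *Ptch1*, *Gli3*, *Cdon* and *Boc* were lower and *Smo* and *Gas1* were higher. Of the 8 genes tested, 7 were called, 5 lower and 2 higher, where 47.2% of 13304 genes were called (23.7% lower and 23.5% higher). Among the 5 lower, *Gli1* passed the filter only through Ctrl+vehicle and so had to be high there to be tested. For 7 of the 8 the libraries did not overlap, against 54.5% of all genes tested.

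*Ptch1* had 43.9, 54.5 and 49.1 CPM in Ctrl+vehicle and 39.4, 35.7 and 35.9 CPM in Ctrl+FGF2 at d5. It was lower in every FGF2 library, as at d2.5, with a log2 fold change of -0.40 (SE 0.070, adjusted p = 1.3e-04). *Hhip* was no longer expressed to a testable level, with 7, 4 and 6 counts in Ctrl+vehicle and 1, 3 and 0 in Ctrl+FGF2. Its counts were low in all groups of the day and ran the other way from d2.5: the libraries did not overlap, and 4 against 17 summed counts gave a 4.4-fold lower value with FGF2 (95% counting interval 1.44 to 18). *Smo* had 170, 172 and 178 CPM in Ctrl+vehicle and 208, 198 and 209 CPM in Ctrl+FGF2, opposite in direction to d2.5, with a log2 fold change of 0.25 (SE 0.042, adjusted p = 6.9e-05).

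Co-receptors moved both ways at d5. *Cdon* had 18.9, 17.4 and 16.7 CPM in Ctrl+vehicle and 9.01, 10.6 and 11.1 CPM in Ctrl+FGF2, a log2 fold change of -0.77 (SE 0.10, adjusted p = 7.1e-06), again without overlap. *Gas1* had 315, 349 and 331 CPM in Ctrl+vehicle and 389, 362 and 374 CPM in Ctrl+FGF2, and rose by 0.19 on the log2 scale (SE 0.046, adjusted p = 0.00259). *Boc*, now expressed, had 33, 26 and 27 counts in Ctrl+vehicle and 18, 18 and 22 in Ctrl+FGF2. Its log2 fold change of -0.61 (SE 0.24) had an adjusted p of 0.0435. This was the weakest call of the day and was kept in only 5 of 17 other fits. The adjusted p was 0.215 with DESeq2, 0.0525 with upper-quartile factors and 0.0601 with no filter. It was 0.0543 with only both groups compared and 0.0617 with all 18 libraries in the fit. It was 0.211 and 0.062 without Ctrl+vehicle replicate 1 or 3, and 0.0914 and 0.142 without Ctrl+FGF2 replicate 1 or 2. Without Y/T dKD+FGF2 replicate 1, 2 or 3 it was 0.0532, 0.0518 and 0.0503.

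The 3 transcription factors differed in size of response at d5. *Gli1*, which passed the filter only through Ctrl+vehicle, had 13, 32 and 18 counts in Ctrl+vehicle and 2, 0 and 3 in Ctrl+FGF2. The vehicle level was in the range of d2.5, and the FGF2 level was at the limit of detection: 63 against 5 summed counts gave a 13.1-fold lower value (95% counting interval 5.31 to 41.6) and a fitted log2 fold change of -3.59 (SE 0.57, adjusted p = 5.3e-05). *Gli3* had 91.7, 92.6 and 94.0 CPM in Ctrl+vehicle and 76.7, 68.9 and 69.4 CPM in Ctrl+FGF2, with a log2 fold change of -0.36 (SE 0.051, adjusted p = 1.4e-05). *Gli2* had 21.2, 24.8 and 24.1 CPM in Ctrl+vehicle and 20.1, 20.1 and 21.9 CPM in Ctrl+FGF2, which overlapped. Its log2 fold change was -0.17 (SE 0.082, adjusted p = 0.108) and was called only without Ctrl+vehicle replicate 1 (-0.23, adjusted p = 0.0379).

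The effect of FGF2 was then compared between the days in one fit of all 18 libraries, in which 60.9% of 14198 genes had a called difference (31.8% higher and 29.1% lower). Of the 9 genes, 6 did, 3 in each direction. *Smo* (difference of log2 fold changes, d5 minus d2.5, 0.46, SE 0.057, adjusted p = 4.0e-08) and *Gas1* (0.49, SE 0.11, adjusted p = 2.1e-04) turned from lower to higher under FGF2. *Gli2* lost most of its fall (0.71, SE 0.17, adjusted p = 8.0e-04). *Hhip* (-6.75, SE 0.77, adjusted p = 8.0e-09) and *Gli1* (-2.93, SE 0.70, adjusted p = 6.1e-04) went the other way, and the sizes of both rest on groups with few counts. *Hhip* entered this fit only through the FGF2-treated groups of d2.5, so its adjusted p was not independent of the filter. *Gli3* also differed (-0.18, SE 0.074, adjusted p = 0.0353), a call that was lost in 8 of 24 other fits. Its adjusted p was 0.284 with upper-quartile factors (-0.09) and 0.077 with no filter. It was 0.107 without d2.5 Ctrl+vehicle replicate 3, and 0.0564 and 0.0509 without d2.5 Ctrl+FGF2 replicate 1 or 2. It was 0.0682 without d5 Ctrl+vehicle replicate 3, and 0.0944 and 0.091 without d5 Ctrl+FGF2 replicate 2 or 3. For *Cdon* (0.12, SE 0.17, adjusted p = 0.572), *Boc* (1.55, SE 0.83, adjusted p = 0.109) and *Ptch1* (-0.19, SE 0.095, adjusted p = 0.0791) no difference was called. That of *Ptch1* was called without d2.5 Ctrl+vehicle replicate 1 (-0.23), d5 Ctrl+vehicle replicate 1 (-0.27) or d5 Ctrl+FGF2 replicate 1 (-0.24), and that of *Boc* without d2.5 Ctrl+FGF2 replicate 2 (4.54), which leaves that group with 0 counts.

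Knockdown of *Yap* and *Taz* under FGF2 changed little among these genes at d2.5. Of the 8 genes tested, only *Smo* was called, lower, where 24.5% of 13677 genes were called (10.8% higher and 13.6% lower). For 4 of the 8 no library of one group lay within the range of the other, against 39.4% of all genes tested. *Smo* had 138, 138 and 147 CPM in Ctrl+FGF2 and 133, 125 and 129 CPM in Y/T dKD+FGF2, a log2 fold change of -0.14 (SE 0.038, adjusted p = 0.00636) that was -0.11 (adjusted p = 0.0721) without Ctrl+FGF2 replicate 3. *Hhip* had 110, 98 and 122 counts in Y/T dKD+FGF2, beside 102, 105 and 116 in Ctrl+FGF2, and the ratio of 1.17 had a 95% counting interval of 0.997 to 1.36 (log2 fold change 0.21, SE 0.12, adjusted p = 0.22). The high level of the antagonist under FGF2 was thus present with and without the knockdown. *Gli3* had 98.3, 86.3 and 85.4 CPM in Y/T dKD+FGF2, all above Ctrl+FGF2, with a log2 fold change of 0.12 (SE 0.048) and an adjusted p of 0.0684; this was 0.0397 and 0.0443 without Ctrl+vehicle replicate 1 or 2 and 0.0483 and 0.0464 without Y/T dKD+FGF2 replicate 2 or 3. Log2 fold changes of the others were -0.09 for *Ptch1* (SE 0.064), -0.12 for *Gas1* (SE 0.079), 0.05 for *Cdon* (SE 0.16), 0.25 for *Gli2* (SE 0.18) and 0.07 for *Gli1* (SE 0.34), with adjusted p-values from 0.311 to 0.918.

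At d5 the knockdown moved most of the genes, with *Ptch1*, *Smo*, *Boc* and *Gli2* lower and *Gas1*, *Cdon* and *Gli3* higher. In all, 7 of 8 genes tested were called, 4 lower and 3 higher, where 31.7% of 13304 genes were called (16.1% lower and 15.6% higher). For 7 of the 8 the libraries did not overlap, against 45.0% of all genes tested. The count was 4 with DESeq2, and 4 without Y/T dKD+FGF2 replicate 1 or 3.

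*Ptch1* had 29.3, 30.0 and 29.7 CPM in Y/T dKD+FGF2 at d5, against 39.4, 35.7 and 35.9 CPM in Ctrl+FGF2. The receptor was thus lowest where both FGF2 and the knockdown were given, with a log2 fold change of -0.32 (SE 0.075, adjusted p = 0.00311) on top of that of FGF2. *Smo* had 177, 195 and 182 CPM against 208, 198 and 209 CPM, a log2 fold change of -0.16 (SE 0.041, adjusted p = 0.00781; -0.13 and 0.0545 without Y/T dKD+FGF2 replicate 1). Its direction was that of d2.5, and the difference between the days was -0.02 (SE 0.058, adjusted p = 0.882). *Hhip* had 1, 4 and 3 counts and was not tested.

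*Boc* had 11, 12 and 7 counts in Y/T dKD+FGF2 and 18, 18 and 22 in Ctrl+FGF2 at d5, a log2 fold change of -0.92 (SE 0.30, adjusted p = 0.0251). With so few counts this call was not firm: the adjusted p was 0.121 with DESeq2, 0.101 without Ctrl+FGF2 replicate 3, and 0.0572 and 0.0893 without Y/T dKD+FGF2 replicate 1 or 3. *Cdon* had 12.5, 12.7 and 12.8 CPM against 9.01, 10.6 and 11.1 CPM, a log2 fold change of 0.30 (SE 0.11, adjusted p = 0.0399). It was the weakest call of this comparison, at 0.15 with DESeq2, 0.0502 with the replicate number as a block, 0.166 and 0.0578 without Ctrl+FGF2 replicate 1 or 2, and 0.0795, 0.0928 and 0.0887 without Y/T dKD+FGF2 replicate 1, 2 or 3. *Gas1* had 444, 503 and 471 CPM against 389, 362 and 374 CPM, a log2 fold change of 0.33 (SE 0.046, adjusted p = 2.5e-05). The rise of *Gas1* was not seen at d2.5, and the difference between the days was 0.44 (SE 0.11, adjusted p = 0.00369).

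*Gli2* had 17.0, 17.5 and 15.6 CPM in Y/T dKD+FGF2 at d5, all below the Ctrl+FGF2 libraries at 20.1, 20.1 and 21.9 CPM, with a log2 fold change of -0.31 (SE 0.086, adjusted p = 0.0101). The adjusted p was 0.0544 with DESeq2, 0.0558 without Ctrl+FGF2 replicate 3 and 0.0521 without Y/T dKD+FGF2 replicate 3. *Gli3* went the opposite way, to 89.5, 91.3 and 83.6 CPM from 76.7, 68.9 and 69.4 CPM, a log2 fold change of 0.30 (SE 0.051, adjusted p = 2.1e-04). *Gli1* had 0, 2 and 0 counts, beside 2, 0 and 3 in Ctrl+FGF2, and both groups were at or under the limit of detection (adjusted p = 0.523). The difference of the knockdown effect between the days was called for 2 of the 9 genes, *Gas1* above and *Gli2* (-0.57, SE 0.19, adjusted p = 0.0353), where 20.9% of 14198 genes were called (11.6% higher and 9.35% lower). The call of *Gli2* was lost with DESeq2 (0.0705), without d2.5 Ctrl+FGF2 replicate 1 (0.0912), without d2.5 Y/T dKD+FGF2 replicate 2 or 3 (0.195 and 0.0749), without d5 Ctrl+FGF2 replicate 3 (0.0666) and without d5 Y/T dKD+FGF2 replicate 3 (0.0654). A difference for *Gli3* (0.17, adjusted p = 0.105) was called without d2.5 Y/T dKD+FGF2 replicate 1 (0.24, adjusted p = 0.0185) or d5 Ctrl+FGF2 replicate 1 (0.22, adjusted p = 0.0362).

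**Figure D3:**
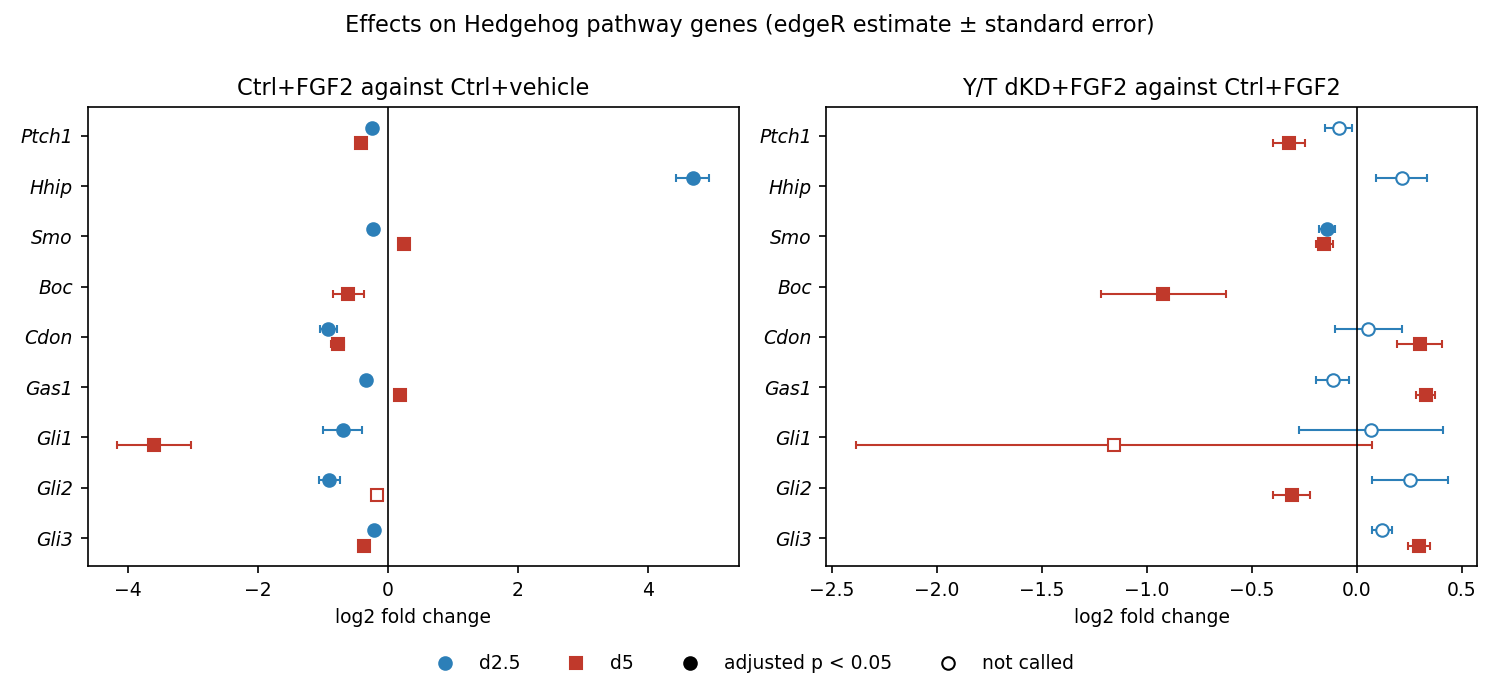
Log2 fold changes (edgeR estimate ± SE) of the 9 genes for FGF2 (left) and for the knockdown under FGF2 (right; the axes differ in range); circles are d2.5, squares are d5, and filled symbols have an adjusted p under 0.05. *Boc* at d2.5 and *Hhip* at d5 were not tested. *Hhip* at 4.70 and *Gli1* at -3.59 stand apart on the left, and *Smo* is the only filled circle on the right.

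Both comparisons above use the Ctrl+FGF2 libraries, so their effects on a gene are not independent of each other. Y/T dKD+FGF2 was therefore also set against Ctrl+vehicle, which uses the ends of both. At d2.5, 6 of the 8 genes tested were called and 6 had no overlap of libraries, where 69.8% of genes were called (34.1% higher and 35.7% lower) and 71.1% had no overlap. Of these, *Hhip*, which passed the filter only through the FGF2-treated groups, was higher (log2 fold change 4.91, SE 0.25, adjusted p = 1.9e-17). The others were lower: *Ptch1* (-0.32), *Smo* (-0.37), *Cdon* (-0.86), *Gas1* (-0.44, and -0.28 without Ctrl+vehicle replicate 1) and *Gli2* (-0.65). *Gli1* (-0.63, SE 0.31, adjusted p = 0.0706) and *Gli3* (-0.08, SE 0.047, adjusted p = 0.12) were not called; *Gli1* was called without Ctrl+vehicle replicate 3 (-0.82) or Y/T dKD+FGF2 replicate 3 (-0.88), and *Gli3* without Ctrl+vehicle replicate 3 (-0.12) or Y/T dKD+FGF2 replicate 1 (-0.14).

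At d5, 6 of the 8 genes tested were called, 1 higher and 5 lower, and 7 had no overlap of libraries. Of all genes tested, 41.8% were called (20.7% higher and 21.1% lower) and 51.9% had no overlap. *Gas1* was higher by 0.52 (SE 0.046, adjusted p = 7.7e-08), and *Ptch1* was lower, with a log2 fold change of -0.73 (SE 0.073, adjusted p = 3.5e-07). *Boc* (-1.53, SE 0.27, adjusted p = 2.2e-04), *Gli2* (-0.48, SE 0.085, adjusted p = 2.1e-04) and *Cdon* (-0.47, SE 0.098, adjusted p = 8.8e-04) were lower as well. *Gli1*, which passed the filter only through Ctrl+vehicle, had 2 counts against 63 and was 32-fold lower by summed counts (95% counting interval 8.5 to 270). Its fitted log2 fold change of -4.75 (SE 0.68, adjusted p = 2.3e-05) became -7.40 without Y/T dKD+FGF2 replicate 2, the only library of that group with a count. *Smo* (0.10, SE 0.042, adjusted p = 0.0659; 0.13 and 0.0471 without Y/T dKD+FGF2 replicate 1) and *Gli3* (-0.06, SE 0.050, adjusted p = 0.319) were not called, their changes under FGF2 and under the knockdown having had opposite signs.

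From d2.5 to d5, where time and batch cannot be told apart, the co-receptors and *Gli2* were higher in all 3 groups. In Ctrl+vehicle 5 of the 9 genes were called, all higher, where 66.4% of 14198 genes were called (33.1% higher and 33.2% lower) and 68.4% had no overlap of libraries between the days. These were *Boc*, which entered this fit only through d5 (log2 fold change 2.86, SE 0.36), *Gli2* (1.99, SE 0.10), *Gas1* (1.73, SE 0.075), *Cdon* (0.92, SE 0.11) and *Ptch1* (0.39, SE 0.065), with adjusted p-values of at most 5.1e-06. In Ctrl+FGF2 all 9 were called, 6 higher and 3 lower, where 80.0% of genes were called (41.2% higher and 38.8% lower) and 81.1% had no overlap of libraries. There *Gas1* rose by 2.22 (SE 0.077) and *Smo* by 0.54 (SE 0.040), and *Hhip* fell by 5.90 (SE 0.34) and *Gli1* by 2.56 (SE 0.62). *Hhip* entered this fit only through the FGF2-treated groups of d2.5 and so had to be high there to be tested. *Ptch1* rose by 0.20 (SE 0.070, adjusted p = 0.0112), which was 0.15 (adjusted p = 0.074) without d5 Ctrl+FGF2 replicate 1, and *Boc* by 4.41 (SE 0.55), which was 7.40 without d2.5 Ctrl+FGF2 replicate 2, the only library of that group with a count. In Y/T dKD+FGF2, 7 of the 9 were called, 5 higher and 2 lower, where 78.4% of genes were called (40.3% higher and 38.1% lower) and 79.8% had no overlap. *Gas1* rose by 2.66 (SE 0.078), *Boc* by 4.62 (SE 0.80), *Hhip* fell by 5.15 (SE 0.29) and *Gli1* fell by 3.8 (SE 0.76; -6.60 without d5 Y/T dKD+FGF2 replicate 2), while *Ptch1* (-0.04, SE 0.075, adjusted p = 0.626) and *Gli3* (-0.03, SE 0.052, adjusted p = 0.647) were not called.

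The ligands themselves were at or near 0. *Shh* had 0 counts in all 18 libraries, *Ihh* had at most 6 counts, in 1 library of d5 Ctrl+vehicle, and *Dhh* at most 5, in 1 library of d2.5 Ctrl+vehicle. Of 15 genes for ligands and their release, 5 were tested at d2.5 and 6 at d5. At d2.5 under FGF2, 2 were higher and 3 lower (median log2 fold change -1.18, against 0.00217 for all genes tested), where 67.6% of all genes were called. *Scube3*, a secreted carrier of ligand, had a log2 fold change of -2.20 (SE 0.098), and *Gpc6*, a glypican, of -1.28 (SE 0.066); *Hhat*, which adds palmitate to the ligand, rose by 0.28 (SE 0.070), and *Disp1*, which releases ligand from the cell, by 0.15 (SE 0.060, adjusted p = 0.031). At d5, 1 was higher and 3 were lower under FGF2 (median -0.10, against 0.0156), where 47.2% of all genes were called. *Scube3* was the one that rose, by 0.79 (SE 0.14). *Scube1* (log2 fold change -4.64, SE 0.47), which passed the filter only through Ctrl+vehicle, *Gpc6* (-0.55, SE 0.053) and *Disp1* (-0.30, SE 0.064, adjusted p = 7.4e-04) were lower. In the knockdown *Disp1* was lower on both days (-0.38, SE 0.063, and -0.30, SE 0.068), the one call of this list at d2.5, where 24.5% of all genes were called. At d5, where 31.7% were, the knockdown had 2 higher, *Scube3* (0.56) and *Hhat* (0.29), and 3 lower, with *Gpc4* (-0.59) and *Gpc6* (-0.31) beside *Disp1*.

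Genes that act between Smo and the Gli proteins shifted by small amounts. Of 30 intracellular regulators 29 were tested. At d2.5 under FGF2, 8 were higher and 13 lower (median log2 fold change -0.13, against 0.00217 for all genes tested), and 67.6% of all genes were called (33.5% higher and 34.1% lower). *Kif7*, the kinesin of the cilium tip, went from 19.3 ± 0.99 to 9.39 ± 0.65 CPM (SD, n = 3; -1.05, SE 0.092, adjusted p = 1.3e-11), and *Sufu*, which holds Gli proteins in the cytoplasm, from 49.5 ± 1.39 to 41.7 ± 1.48 CPM (-0.26, SE 0.052, adjusted p = 6.0e-05). *Arrb1* (-0.71, SE 0.044), *Arrb2* (0.72, SE 0.11) and *Cul3* (0.38, SE 0.034) were the other large changes, the first a beta-arrestin like the second, and the third part of a ubiquitin ligase for Gli proteins. At d5, where 47.2% of all genes were called, 11 were higher and 5 lower (median 0.07, against 0.0156), with *Stk36* (0.52, SE 0.12), *Kif7* (0.48, SE 0.12, adjusted p = 0.00294) and *Sufu* (0.31, SE 0.068, adjusted p = 0.00106) higher and *Mosmo* (-0.29, SE 0.060) and *Spopl* (-0.22, SE 0.055) lower. Of the 13 that were lower at d2.5, 8 were higher at d5, 1 was lower and 4 were not called. *Gpr161*, a ciliary receptor that restrains the pathway, was not called on either day (-0.14, SE 0.061, adjusted p = 0.0507, and 0.05, SE 0.059, adjusted p = 0.536). The knockdown, with 24.5% of all genes called at d2.5 and 31.7% at d5, called 3 higher and 5 lower at d2.5, among them *Stk36* (-0.45), *Cul3* (0.17) and *Prkacb* (0.13), and 3 higher and 6 lower at d5, where *Arrb1* (-0.41), *Gnas* (-0.26), *Spop* (0.17) and *Adcy6* (0.13) led.

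Genes of the primary cilium, the organelle in which the signal is passed on, were all tested, 51 of 51. Under FGF2, 7 were higher and 30 lower at d2.5 (median log2 fold change -0.21, against 0.00217 for all genes tested), and 21 were higher and 5 lower at d5 (median 0.17, against 0.0156). Of all genes, 33.5% were higher and 34.1% lower at d2.5, and 23.5% were higher and 23.7% lower at d5. Of the 30 that were lower at d2.5, 15 were higher at d5, 3 were lower and 12 were not called. *Rpgrip1l*, of the transition zone at the base of the cilium, had -1.67 (SE 0.053) at d2.5 and *Ift122*, of a transport complex within it, -0.69 (SE 0.056), whereas *Traf3ip1* (0.88, SE 0.073) and *Cep290* (0.67, SE 0.061) were higher. At d5 *B9d2* (0.70, SE 0.17) and *Ttc30b* (0.66, SE 0.13) were higher and *Bbs5* (-0.32, SE 0.13, adjusted p = 0.0453) and *Bbs7* (-0.32, SE 0.076) lower. The difference of the FGF2 effect between the days was called higher for 29 and lower for 7 of the 51 (median 0.31, against 0.0335), where 31.8% of all genes were higher and 29.1% lower. In the knockdown 4 were higher and 1 lower at d2.5, with *Hspb11* (0.28), *Ttbk2* (0.23) and *B9d2* (-0.48), and 2 were higher and 17 lower at d5 (median -0.12, against 0.00338), with *Ttc30b* (-0.54), *Inpp5e* (-0.47), *Ttc26* (0.26) and *Traf3ip1* (0.24). The knockdown called 10.8% of all genes higher and 13.6% lower at d2.5, and 15.6% higher and 16.1% lower at d5.

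Genes reported elsewhere as Hedgehog targets, other than the 9, were called in both directions. Of 20, 14 were tested at d2.5, with 7 higher and 4 lower under FGF2 (median log2 fold change 0.26, against 0.00217 for all genes tested), where 33.5% of all genes were higher and 34.1% lower. At d5, 11 were tested, with 7 higher and 2 lower (median 0.27, against 0.0156), where 23.5% of all genes were higher and 23.7% lower. At d2.5 *Ccnd1*, a cyclin (3.0, SE 0.033), and *Jag2*, a Notch ligand (1.39, SE 0.18), were higher, and *Prdm1*, a transcriptional repressor (-2.91, SE 0.12), and *Sfrp1*, a secreted Wnt antagonist (-1.77, SE 0.14), were lower. At d5 *Osr2* (1.17, SE 0.16) and *Pthlh* (1.01, SE 0.10) were higher and *Prdm1* (-1.19, SE 0.15) and *Ccnd2* (-1.17, SE 0.10) lower. The knockdown called 2 lower at d2.5, *Jag2* (-0.46) and *Ccnd2* (-0.23), where 24.5% of all genes were called. At d5, where 31.7% were, it called 1 higher and 4 lower, of which *Prdm1* (1.36, SE 0.14), *Osr2* (-0.96, SE 0.16) and *Foxd1* (-0.47, SE 0.11) were the most changed. Many genes of this list, *Ccnd1* among them, are known to answer to other signals.

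**Figure D4:**
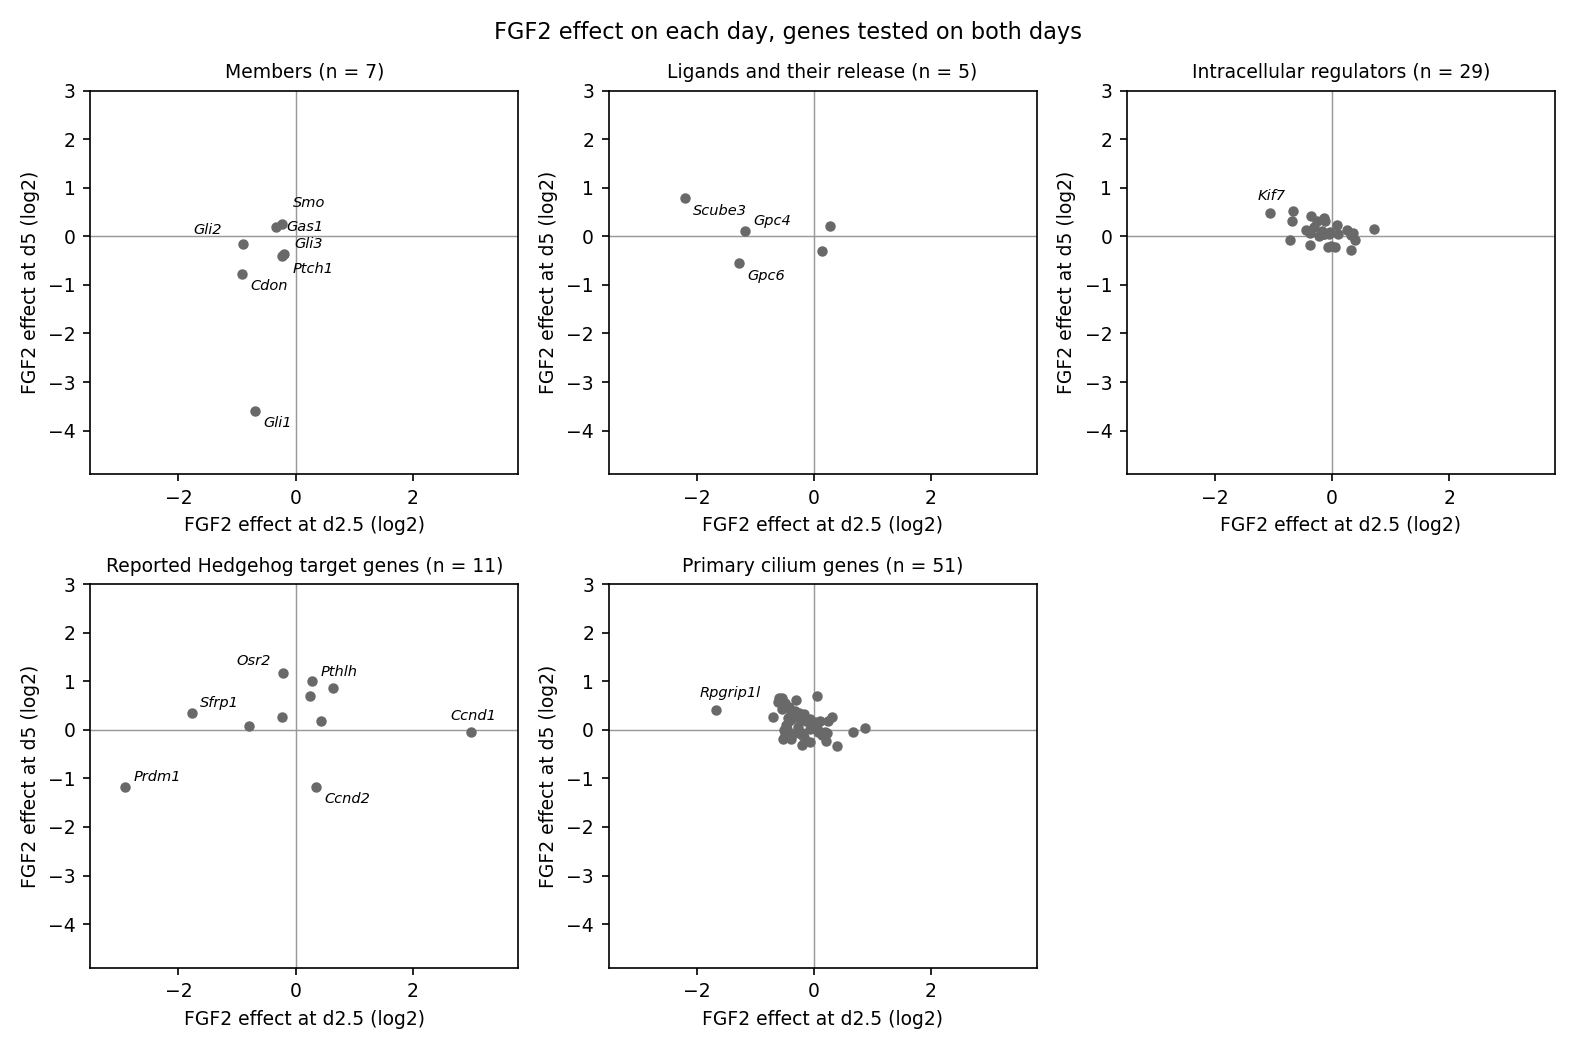
FGF2 effect at d2.5 (x axis, log2 fold change) against that at d5 (y axis) for genes tested on both days, in 5 panels: the 9 genes of which 7 were tested on both days, ligands and their release, intracellular regulators, reported Hedgehog target genes and primary cilium genes. *Kif7*, *Rpgrip1l* and *Scube3* lie left of 0 and above 0, lower under FGF2 at d2.5 and higher at d5, whereas *Prdm1* is lower on both days. *Gli1* also lies below 0 on both axes, but its call at d2.5 was kept in only 7 of 17 other fits.

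Markers of cell states moved with the groups as well, and the counts below stand beside the shares of all genes called. FGF2 called 33.5% of all genes higher and 34.1% lower at d2.5, and 23.5% higher and 23.7% lower at d5. For the knockdown these shares were 10.8% higher and 13.6% lower at d2.5, and 15.6% higher and 16.1% lower at d5. All 8 genes of dividing cells were higher under FGF2 at d2.5 (median log2 fold change 1.13; summed level 748 to 844 CPM in Ctrl+vehicle and 1732 to 1772 CPM in Ctrl+FGF2) and all 8 were lower at d5 (median -1.66; 340 to 585 CPM against 109 to 206 CPM). In the knockdown 4 of 8 were higher at d2.5 (1900 to 1977 CPM) and all 8 at d5 (259 to 292 CPM). Osteoblast markers summed to 17170 to 17510 CPM in Ctrl+vehicle and 9599 to 9847 CPM in Ctrl+FGF2 at d2.5, with 2 higher and 6 lower of 8 tested, and to 32320 to 34530 CPM and 17830 to 19220 CPM at d5, with 4 higher and 5 lower of 9; in the knockdown they summed to 11680 to 12200 CPM and 24510 to 26180 CPM, with 4 higher and 1 lower at d2.5 and all 9 higher at d5. At d2.5, 5 chondrocyte markers were lower under FGF2 (607 to 840 CPM against 60.6 to 63.6 CPM), as were 2 smooth muscle markers (168 to 231 CPM against 22.7 to 23.7 CPM). At d5, 3 chondrocyte markers were higher and 1 lower under FGF2 and the summed level of smooth muscle markers was 2032 to 2146 CPM in Ctrl+vehicle and 2674 to 3070 CPM in Ctrl+FGF2, with 1 of 3 higher. Of the NC markers tested, 3 of 8 were lower under FGF2 at d2.5, and 3 were higher and 3 lower at d5; in the knockdown 2 were higher and 2 lower at d2.5, and 5 were higher and 3 lower at d5. Chondrocyte markers had 3 of 5 higher in the knockdown at d2.5 and 2 of 5 lower at d5, and smooth muscle markers 2 of 2 lower and then 1 higher and 1 lower of 3. Glial, neuronal, epithelial, endothelial and leukocyte markers summed to at most 3.8, 68.9, 5.62, 3.87 and 4.59 CPM in any library, and of their defining genes *Fabp7*, *Elavl3*, *Rbfox3*, *Cdh5* and *Cd3e* had 0 counts throughout. The part of dividing, osteoblast, chondrocyte and smooth muscle markers in the values of the Hedgehog genes was not tested.

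Last, genes with the level pattern most like that of *Ptch1*, *Gli1* and *Gas1* were found by Pearson correlation of log2 CPM over the 18 libraries, among genes whose log2 CPM averaged 1 or more. The libraries share groups, days and scaling, and the values are descriptions. For *Ptch1* these were *Fbn1* (r = 0.906), *Cachd1* (0.904) and *Emilin2* (0.902), each highest in d5 Ctrl+vehicle. *Fbn1*, for fibrillin of elastic microfibrils, had 279 ± 7.96 CPM there and 128 ± 1.06 CPM in d5 Y/T dKD+FGF2 (SD, n = 3). For *Gli1* they were *Insig1* (0.912), *Rnf20* (0.905) and *Fkbp1a* (0.899), though *Gli1* itself rests on few counts. *Insig1*, a regulator of sterol synthesis, had 123 ± 7.91 CPM in d5 Ctrl+vehicle and 36.8 ± 2.78 CPM in d5 Y/T dKD+FGF2. For *Gas1* they were *Arl4d* (0.997), *Actn1* (0.997) and *Col16a1* (0.993), all with higher levels at d5 than at d2.5 in every group. *Arl4d*, a small GTPase, had 83.2 ± 4.02, 119 ± 2.44 and 158 ± 6.34 CPM at d5 with vehicle, with FGF2 and with FGF2 plus the knockdown, the same order as for *Gas1*.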

How the data were processed

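Poly(A) RNA of O9-1 cells was sequenced in 18 libraries, 3 of each of 6 groups, as the labels name them. The authors deposited raw counts per gene and library, not normalized, with columns for unstranded, forward and reverse reads; the submitters' processing notes name FastQC, STAR, Picard, featureCounts and mm10, and versions and the annotation are not given in the sources used here. The reverse-strand column was used, with 96.0% to 96.6% of stranded counts. Entries that name no gene made up 27.0% to 34.4% of each library and were not used. Of 55335 identifiers, 55154 matched GENCODE M21 (GRCm38), by the unversioned identifier where versions differ; this gave names, coordinates and exon lengths.

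The tests used edgeR 4.0.16 under R 4.3.3 (TMM, filterByExpr, quasi-likelihood test, Benjamini-Hochberg over all genes tested, 0.05) in a fit of 9 libraries per day, and in a fit of 18 libraries for differences between days. The pipeline was tested on simulated data. Displayed CPM use TMM factors over all 18 libraries, the daily fits their own. Replicates differed by more than sampling noise (chi-square per gene 1.25 to 6.41). The alternatives were DESeq2 1.42.0, upper-quartile or RLE factors, a minimum of 10 counts or no filter, other libraries in the fit, a replicate block, unstranded counts, other thresholds, and leaving out each library. The study's methods name no test for these counts. All 9 genes, *Shh*, *Ihh*, *Dhh*, *Sufu*, *Kif7*, *Gpr161*, *Disp1*, *Yap1* and *Wwtr1* are named, with, per list, day and comparison, the 2 called genes with the largest rise and the 2 with the largest fall, and the 3 genes most like *Ptch1*, *Gli1* and *Gas1*; some genes that this rule names are not reported here. The genes and lists were chosen with earlier results of these data known.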

Additional observations from a re-analysis of the deposited data

Results flagged for a closer look

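The following values are differences of an effect between d5 and d2.5 that passed the test of the difference itself (edgeR, adjusted p under 0.05); day is also batch. For FGF2 the difference in log2 fold change was 0.46 for *Smo*, 0.49 for *Gas1* and 0.71 for *Gli2*, with the first 2 changing from lower to higher. It was -6.75 for *Hhip*, -2.93 for *Gli1* and -0.18 for *Gli3*, and the first 2 of these rest on groups with few counts. *Hhip* entered the joint fit only through the FGF2-treated groups of d2.5, so its call was not independent of the filter. The call of *Gli3* was kept in 16 of 24 other fits. For the knockdown under FGF2 the difference was 0.44 for *Gas1* and -0.57 for *Gli2*, and the call of *Gli2* was kept in 18 of 24 other fits.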

How the results depend on the processing

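No value of the 9 genes that was called turned in direction under any alternative. With DESeq2 the knockdown called 4 of the genes at d5, in place of 7, and 1 for the difference between days, in place of 2. At d2.5 the knockdown called 2 with RLE or upper-quartile factors and 3 with only both groups compared, in place of 1. At an adjusted p under 0.01 it called 4 at d5 and 1 for the difference between days. With a change of at least 2-fold required, FGF2 called 1 at d2.5, *Hhip*, and 1 at d5, *Gli1*. Each passed the filter of that day only through the groups where it was high. At 2-fold the knockdown called 0 and 0, and FGF2 with the knockdown, set against Ctrl+vehicle, 1 and 2. Of all genes, the knockdown at d2.5 called 3390 with RLE factors, 3389 with upper-quartile factors and 3345 in the main fit. Shares of all genes under the other alternatives are not given here.

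Leaving out 1 library at a time gave 7 to 8 calls for FGF2 at d2.5 and 6 to 7 at d5, 0 to 2 for the knockdown at d2.5 and 4 to 7 at d5, and 6 to 8 and 6 to 7 for FGF2 with the knockdown, set against Ctrl+vehicle. It gave 5 to 7 and 1 to 3 for differences of the FGF2 and knockdown effects between days, and 5, 8 to 9 and 7 for the days within the vehicle, FGF2 and knockdown groups. Spearman correlation kept 1 of the 9 like genes.

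Pairing of libraries by replicate number was not clear: deviations of same-numbered libraries correlated at -0.07 to 0.03 at d2.5 and -0.06 to 0.11 at d5. Those of different-numbered libraries correlated at -0.04 to 0.09 and -0.12 to 0.05. At d5, same-numbered Ctrl+vehicle and Ctrl+FGF2 libraries had 0.10, 0.11 and 0.02. With the replicate number as a block, the calls of *Gli1* (FGF2, d2.5, adjusted p = 0.0562) and *Cdon* (knockdown, d5, adjusted p = 0.0502) were lost and no other changed. For the days within a group the block could not be fitted, since the numbers are nested in days.

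Depth limits *Hhip*, *Gli1* and *Boc*, with 0 to 122, 0 to 32 and 0 to 33 counts per library.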
